A study of Mus musculus with 48 samples.

Results

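Hmgcs1, Idi1, Fdps, Fdft1, Sqle, Lss, Cyp51 and Dhcr7 encode 8 enzymes of cholesterol synthesis. They were read from 48 one-colour Agilent mouse arrays, on which a member was any probe outside the control spots whose gene name in the scanner files is one of these 8. All 8 were found among 22290 named genes on the array, by 10 of its 55681 probes. Fdft1 and Hmgcs1 each had a second probe, and the probe with the highest mean signal over the 48 arrays stands for the gene. The main probes were well above background on 48 of 48 arrays.

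The study asked how systemic inflammation around birth changes developing oligodendrocytes and microglia. Male pups of the strain that the labels name Swiss received intraperitoneal injections of IL1B, an inflammatory cytokine, at 10 ng/g, or of PBS, the vehicle, from postnatal day 1 (P1) to P4 and once more at P5. Brains were dissociated 2 h after the last injection according to the labels, or at P10, and magnetic beads took first O4+ cells and then, from what was left, CD11B+ cells. O4 is a surface antigen of late oligodendrocyte progenitors and immature oligodendrocytes, and CD11B marks microglia and other myeloid cells. The 8 groups were O4+ cells and CD11B+ cells at P5 and P10 from PBS and IL1B pups, with 6 arrays each, and both cell types came from the same animals. Brains were pooled within a sample according to the methods. The labels name the 6 samples of a group as separate replicates, and p-values measure the spread between these samples. Every sample of a group was a bead-enriched mixture, so that fewer cells of a type and less RNA per cell cannot be told apart.

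Cholesterol synthesis begins with acetyl-CoA and runs through the mevalonate pathway to squalene, which is closed to the ring of lanosterol and then trimmed to cholesterol. Because lipoprotein cholesterol barely crosses into the brain, brain cells make their own, and oligodendrocytes need large amounts for the myelin membrane. The genes of the pathway share a transcriptional control: when sterols run low, Insig lets go of Scap, which escorts the SREBP factors (genes Srebf1 and Srebf2) to be activated, and these bind sterol regulatory elements together with NF-Y and Sp1. Hmgcs1 makes HMG-CoA, Idi1 isomerises isopentenyl diphosphate, Fdps builds farnesyl diphosphate and Fdft1 joins it to squalene. Sqle then oxidises squalene, Lss closes it to lanosterol, Cyp51 removes a methyl group from lanosterol, and Dhcr7 carries out the last reduction to cholesterol.

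The promoter windows of 4 of the 8 genes are shown, the 4 that have a single window in the promoter table. They are the 250 bases upstream of the annotated start, read 5′ to 3′ on the strand of the gene from RefSeq (GRCm38.p6), in lower case, with matches to the sterol regulatory element (TCACNCCAC, or the shorter TCACNCCA) and to the NF-Y box (CCAAT), on either strand, in capitals.
Hmgcs1, chr13:119690101-119690350, plus strand: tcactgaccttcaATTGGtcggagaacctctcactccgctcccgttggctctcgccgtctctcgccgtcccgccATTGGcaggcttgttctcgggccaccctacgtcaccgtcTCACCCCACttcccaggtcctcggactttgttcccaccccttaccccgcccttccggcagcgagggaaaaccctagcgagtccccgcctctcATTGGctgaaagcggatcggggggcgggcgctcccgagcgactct
Lss, chr10:76531355-76531604, plus strand: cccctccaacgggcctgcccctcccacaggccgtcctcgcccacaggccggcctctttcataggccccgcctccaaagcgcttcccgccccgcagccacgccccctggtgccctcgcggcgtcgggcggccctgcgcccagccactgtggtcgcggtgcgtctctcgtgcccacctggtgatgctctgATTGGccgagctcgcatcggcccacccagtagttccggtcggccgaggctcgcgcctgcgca
Idi1, chr13:8885356-8885605, plus strand: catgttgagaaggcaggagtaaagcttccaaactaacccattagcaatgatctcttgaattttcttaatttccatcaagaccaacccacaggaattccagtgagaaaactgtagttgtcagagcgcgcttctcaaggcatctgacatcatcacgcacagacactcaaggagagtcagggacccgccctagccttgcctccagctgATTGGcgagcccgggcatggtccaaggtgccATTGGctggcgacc
Cyp51, chr5:4104698-4104947, minus strand: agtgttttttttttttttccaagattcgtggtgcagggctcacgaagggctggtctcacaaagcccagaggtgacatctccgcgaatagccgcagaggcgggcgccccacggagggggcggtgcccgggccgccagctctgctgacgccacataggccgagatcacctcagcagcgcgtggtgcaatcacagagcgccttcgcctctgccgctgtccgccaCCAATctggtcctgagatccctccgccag

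The Hmgcs1 window held the sterol regulatory element TCACCCCAC, at bases -137 to -129 from the start, and 3 NF-Y boxes that begin at -237, -176 and -45. The shorter form of the element lay within the longer one. No other member's window held either form of the element, which occurred in 1.05% (longer) and 3.67% (shorter) of all 32851 mouse promoter windows in the RefSeq table. NF-Y boxes were present once in Lss (-62), 2 times in Idi1 (-45 and -14) and once in Cyp51 (-29), and 33.8% of all windows held one. The Sp1 box GGGCGG was found 2 times in Hmgcs1, 2 times in Lss, 1 time in Idi1 and 1 time in Cyp51, against 32.7% of all windows with at least 1. Dhcr7 had 3 annotated windows on chromosome 7, of which the first and second overlap. The third held 2 NF-Y boxes and 3 Sp1 boxes, the first held 1 Sp1 box, and the second held the E-box CACGTG, which 6.02% of all windows held. Sqle, Fdft1 and Fdps had no entry in the table. A match is a run of letters and not a measured binding site. Only these exact letters were searched, so a missing match does not show that a window lacks such an element.

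In mm9, the build of the annotation in the scanner files, the main probes lie at chr13_random:114793-114852 (Hmgcs1), chr13:8891524-8891583 (Idi1), chr3:88897549-88897608 (Fdps), chr15:59162688-59162747 (Sqle), chr10:76015992-76016051 (Lss), chr5:4081471-4081530 (Cyp51) and chr7:151033874-151033933 (Dhcr7). The Fdft1 main probe spans a splice junction between chr14:63765750 and 63769990. The second Fdft1 probe lies at chr14:63764562-63764621 and the second Hmgcs1 probe at chr13_random:114558-114617. The file's description of the second Hmgcs1 probe names a RIKEN testis clone with a different product, and it was well above background on 30 of 48 arrays. The place of the probes within exons and untranslated regions was not analysed here.

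On each array 52.9% to 65.4% of the probes were well above background, no spot was saturated, and arrays of the same group correlated at 0.958 or more. Several arrays stood apart. CD11B+ P5 PBS replicate 5 had a summed astrocyte marker signal of 45886, against 8018 to 16429 on the other 5 arrays, and it was also the highest of its group for Hmgcs1, Idi1, Fdps, Fdft1, Sqle, Lss and Cyp51. CD11B+ P5 IL1B replicate 3 correlated least with its group and had a summed neuron marker signal of 62402, against 8166 to 9700 on the others, and it was the lowest of its group for Fdps, Fdft1, Sqle and Lss. Replicate 6 of the O4+ P10 PBS group and replicate 6 of the O4+ P10 IL1B group shared a slide, and their deviations from the group means correlated at 0.82. Comparisons of pairs of groups within a cell type that rest on these arrays, and that of the cell types at P5, are given with and without them. CD11B+ P10 PBS replicate 6 had a summed neutrophil and monocyte signal of 154660, the highest of its group. As a check of the labels, 12 of 13 measured myelin genes and 9 of 9 oligodendrocyte lineage genes were higher in O4+ than in CD11B+ cells of P5 PBS pups, whereas 13 of 15 microglia genes and 7 of 8 neutrophil and monocyte genes were lower. The oligodendrocyte genes Mobp, Opalin and Enpp6 were above background on none of the 6 CD11B+ P5 PBS arrays, and the myeloid genes Ngp and Ccr2 on none of the 6 O4+ P5 PBS arrays. Neither fraction was pure by these genes. All 15 microglia genes and 4 of 8 neutrophil and monocyte genes were above background on all 6 O4+ P5 PBS arrays, where the summed microglia signal was 30.8% of that in CD11B+ cells, and 11 of 13 myelin and 8 of 9 lineage genes were above background on all 6 CD11B+ P5 PBS arrays.

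Cholesterol synthesis enzymes had far more RNA signal in O4+ cells than in CD11B+ cells. Here and below, an enzyme's value is the array signal of its RNA, and protein was not measured. By their main probes all 8 enzymes were higher in O4+ cells of PBS pups at P5 and again at P10. For each main probe the lowest of the 24 O4+ arrays lay above the highest of the 24 CD11B+ arrays. The second Fdft1 probe went the other way, as given below. Values are log2 of the background-subtracted signal, quantile-normalised over the 48 arrays, and they are compared between arrays for 1 probe at a time, since signals of different probes have no common scale. A gene was called when limma's adjusted p, over all 55681 probes, was under 0.05 and the ratio of group medians was over 1.5.

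Hmgcs1 ranged from 15.66 to 15.82 in O4+ cells of P5 PBS pups (median 15.77) and from 13.22 to 14.10 (median 13.40) in CD11B+ cells. The difference was 2.26 ± 0.13 on the log2 scale (SE, n = 6 per group), or 5.16-fold between medians. At P10 the O4+ arrays reached 16.66 to 17.05 (median 16.78) and the CD11B+ arrays 13.50 to 13.89 (median 13.78), a log2 difference of 3.09 ± 0.09. The 2 cell types were thus separated by more than the whole range within either of them at both ages. Sqle, which catalyses a rate-limiting oxygen-dependent step, had the widest difference among the 8 at P5. Its signal was 14.35 to 14.65 (median 14.57) in O4+ cells and 11.40 to 12.30 (median 11.51) in CD11B+ cells, 2.91 ± 0.14 apart or 8.35-fold between medians. At P10 its difference was 2.64 ± 0.06, or 6.10-fold.

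Lss had the widest difference at P10, where O4+ arrays lay at 10.84 to 11.52 (median 11.10) and CD11B+ arrays at 7.75 to 8.07 (median 7.95). That difference was 3.21 ± 0.11, or 8.89-fold between medians, against 1.97 ± 0.08 at P5. Dhcr7, at the end of the pathway, differed least at both ages, by 1.21 ± 0.08 at P5 and 1.55 ± 0.11 at P10. Its medians were 11.19 and 9.95 at P5 and 11.38 and 9.95 at P10, without overlap of the arrays. The other differences at P5 were 2.18 for Idi1, 2.21 for Fdps, 2.04 for Fdft1 and 1.501 for Cyp51, and at P10 they were 2.80, 3.09, 2.30 and 1.91 in the same order. Each adjusted p at P5 was between 3.6e-10 (Fdps) and 7.96e-08 (Dhcr7), by limma. The share of all probes called higher in O4+ cells was 19.8% at P5 and 22.2% at P10, and the median over all probes was -0.05 and 0.00, whereas the median over the 8 enzymes was 2.11 and 2.72.

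Both cell types at P5 shared slide 4, with 2 O4+ arrays and 1 CD11B+ array of PBS pups, and within it the differences ran from 1.23 to 2.90 with a median of 2.17. At P10 the PBS arrays of the 2 cell types shared no slide. Without CD11B+ P5 PBS replicate 5 all 8 were called at P5 with a median of 2.20. The sum of the 8 linear signals in CD11B+ cells was 18.8% of that in O4+ cells at P5 and 13.7% at P10. The summed oligodendrocyte lineage genes were at 3.87% and 7.93% and the summed myelin genes at 2.93% and 3.56%. Such sums are descriptions in which the brightest probes of a list weigh most, so percentages of different lists have no common scale. The part of oligodendrocyte RNA in the enzyme signal of CD11B+ cells was not tested.

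**Figure D1:**
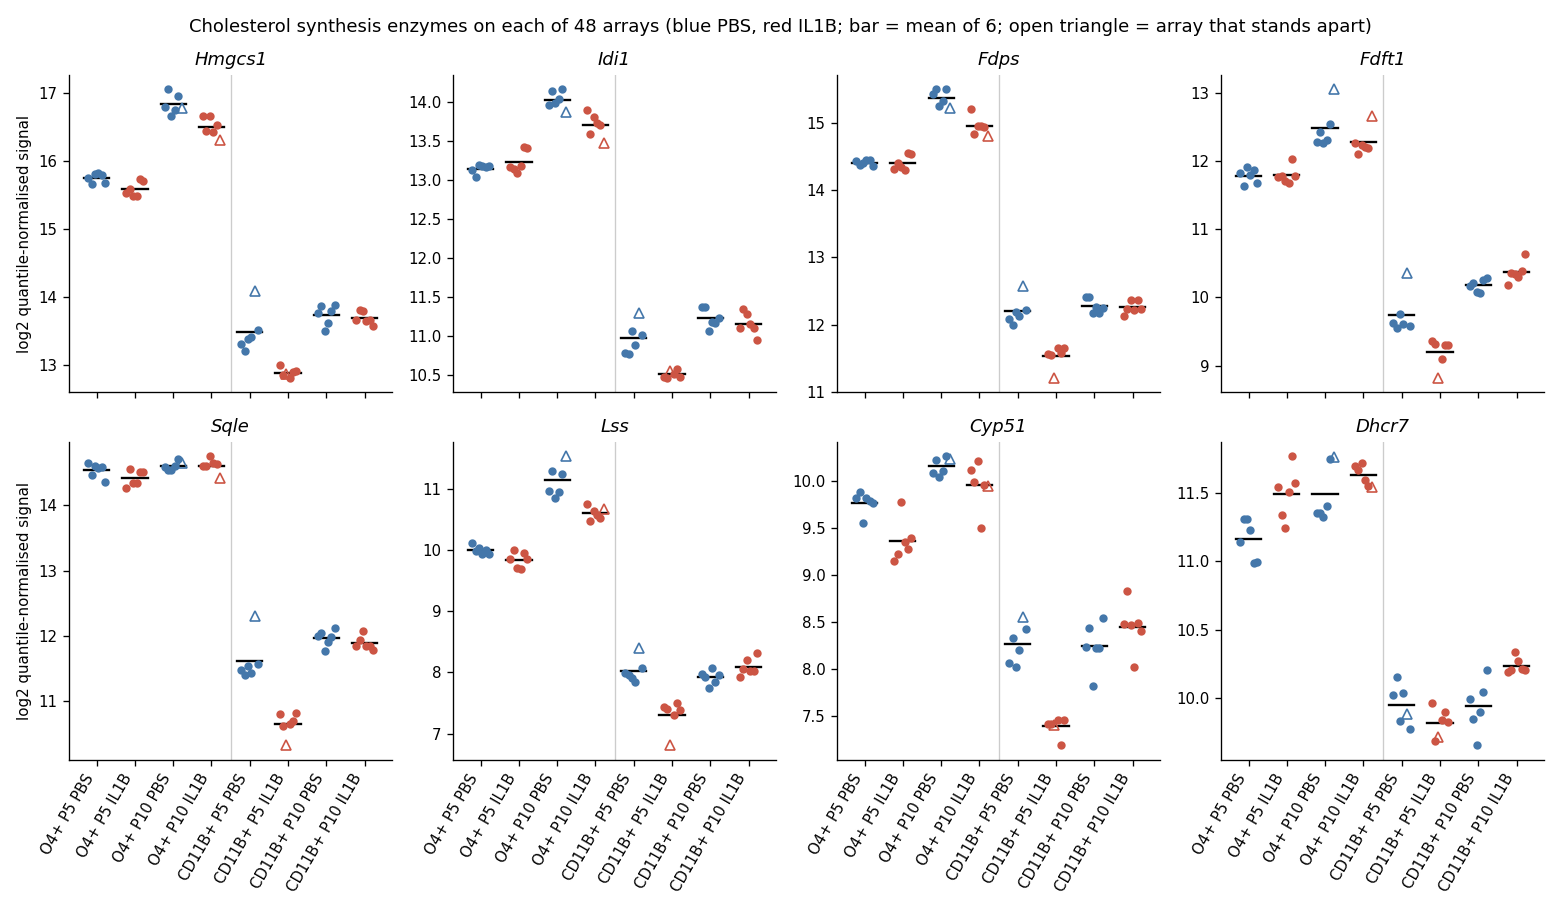
Log2 quantile-normalised signal of the main probe of each of the 8 enzymes on every array, with cell type, age and treatment along the horizontal axis. Points are arrays (blue PBS, red IL1B), bars are means of 6, open triangles are the arrays that stood apart; all O4+ arrays lie above all CD11B+ arrays in every panel, and CD11B+ P5 IL1B has the lowest median of the 8 groups in each.

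The order of the 8 groups was similar from gene to gene. O4+ cells of P10 PBS pups had the highest median for Hmgcs1, Idi1, Fdps, Fdft1, Lss and Cyp51, whereas O4+ cells of P10 IL1B pups did for Sqle (14.62 against 14.59) and Dhcr7 (11.63 against 11.38). Neighbours at the top overlapped except for Fdps and Lss, where every P10 PBS array lay above every P10 IL1B array. CD11B+ cells of P5 IL1B pups had the lowest median for all 8, without overlap with the next group except for Dhcr7.

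The remaining 14 enzymes of the pathway on the array showed the same difference between cell types, with exceptions. In O4+ cells, 10 of 14 were called higher and 1 lower at P5 (median 1.21), and 11 were called higher and 1 lower at P10 (median 1.93). Acat2 and Tm7sf2, a thiolase at the entry of the pathway and a sterol reductase, were 2.03 and 1.88 higher at P5. Ebp, a sterol isomerase, was 1.06 lower in O4+ cells at P5 (log2 difference -1.06), and Lbr, a nuclear envelope protein with sterol reductase activity, had a log2 difference of -1.31 at P10.

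Genes of fatty acid synthesis under SREBP control were also higher in O4+ cells, 9 of 11 at each age, with medians of 1.91 and 2.49. Elovl6, Me1 and Acss2, a fatty acid elongase, malic enzyme and acetyl-CoA synthetase, differed by 3.97, 3.83 and 2.97 at P5. Thrsp, a regulator of lipogenesis, was lower in O4+ cells, with a log2 difference of -1.502. Genes of sterol export, storage and turnover had the opposite direction, with 9 of 14 called lower at P5, against 21.9% of all probes, and 1 higher. Ch25h (cholesterol 25-hydroxylase), Lpl (lipoprotein lipase) and Abca1 (a cholesterol exporter) had log2 differences of -3.33, -3.16 and -2.33. Among 12 SREBP regulators and sterol uptake genes, 4 were called higher and 3 lower at P5. Srebf2 was 0.77 higher, Insig1 0.46 higher without reaching the fold threshold, and Srebf1 had a log2 difference of -0.44, also short of it. Mylip, a ubiquitin ligase that limits sterol uptake, was lower in O4+ cells with log2 differences of -3.13 at P5 and -5.08 at P10.

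Between P5 and P10 the pathway rose in O4+ cells of PBS pups, but unevenly. Lss, Hmgcs1, Fdps and Idi1 were called higher at P10, and 8.09% of all probes were called higher. Lss arrays lay at 9.92 to 10.11 at P5 and 10.84 to 11.52 at P10, a rise of 1.14 ± 0.11 or 2.16-fold (adjusted p = 7.82e-06, limma). Hmgcs1 rose by 1.08 ± 0.07, or 2.02-fold between medians (adjusted p = 3.35e-07, limma). Fdps went from 14.36 to 14.45 (median 14.42) to 15.23 to 15.50 (median 15.38), a rise of 0.96 ± 0.06. Idi1 went from 13.04 to 13.19 (median 13.18) to 13.88 to 14.17 (median 14.02), a rise of 0.88 ± 0.06. In these 4 genes the P10 arrays lay well clear of the P5 arrays.

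The other 4 enzymes had smaller changes. Fdft1 had a log2 change of 0.69 ± 0.13 (adjusted p = 0.00104, limma) and a ratio of medians of 1.47, just under the threshold, with P5 arrays at 11.64 to 11.91 and P10 arrays at 12.27 to 13.06. Cyp51 changed by 0.39 ± 0.06 (adjusted p = 0.000491, limma) and Dhcr7 by 0.33 ± 0.10 (adjusted p = 0.0251, limma), 1.29-fold and 1.14-fold between medians. Sqle was at 14.35 to 14.65 (median 14.57) at P5 and 14.53 to 14.71 (median 14.59) at P10, a change of 0.07 ± 0.06 (adjusted p = 0.408, limma). Sqle was thus the only one of the 8 whose P5 and P10 arrays overlapped. The other 7 did not overlap, against 13% of all probes that were higher without overlap. The median change of the 8 was 0.79, against 0.02 over all probes.

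Each age was hybridised on slides and scan days of its own in PBS O4+ cells, so age and hybridisation batch cannot be told apart. With the slide as a random block, 4 enzymes were called, and without replicate 6 of the P10 group the same number was called with a median of 0.74.

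**Figure D2:**
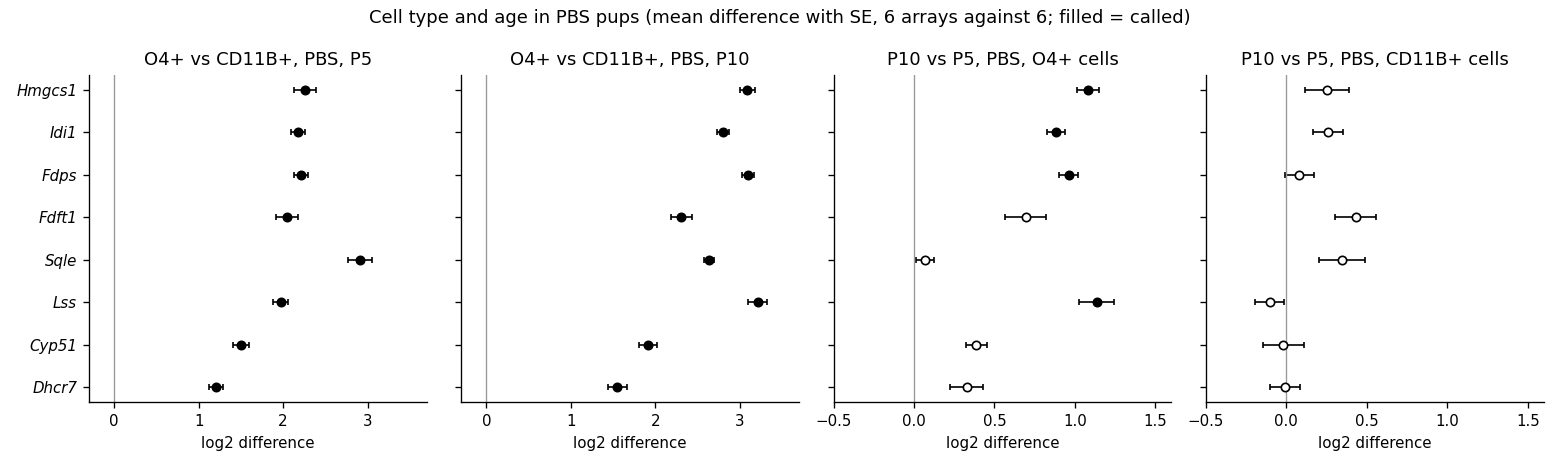
Mean log2 difference with its SE for each of the 8 enzymes in PBS pups, in 4 panels: O4+ against CD11B+ cells at P5 and P10, and P10 against P5 in each cell type (6 arrays against 6). Filled points were called; all 8 were in both comparisons of cell types, 4 with age in O4+ cells and none with age in CD11B+ cells.

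Of the other 14 pathway enzymes, 9 rose with age in O4+ cells and 1 fell, with a median of 0.70. Mvd (mevalonate diphosphate decarboxylase) rose by 1.16, Sc5d (a sterol desaturase) by 1.10 and Hsd17b7 (a sterol ketoreductase) by 1.02. Lbr fell by 0.80, and Ggps1, which takes farnesyl diphosphate to protein prenylation, had a change of 0.03. In the list of regulators and uptake genes 2 of 12 rose and 2 fell, Mylip by 1.75. Srebf1 (0.34), Srebf2 (0.11) and Insig1 (0.60) were not called. Of 11 fatty acid synthesis genes, 5 rose, among them Acss2 by 1.38, Thrsp by 0.86 and Elovl6 by 0.79 (log2). In the export and turnover list 2 genes rose and 5 fell, with Lpl at -2.29, Ch25h at -1.45 and Abca1 at -1.06, and Cyp46a1, the neuronal cholesterol 24-hydroxylase, at 1.00.

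Marker signals of the O4+ samples differed with age, which can come from the mix of cells or from RNA per cell. The myelin list rose, with 12 of 13 genes called and a summed signal of 269867 to 306116 at P5 and 974577 to 1159759 at P10. Microglia genes fell, 12 of 15, from 358446 to 440106 down to 287696 to 376961 in sum, and 4 of 7 endothelial genes fell. Of 7 neuron genes 2 were called higher and 2 lower, and their summed signal went from 43029 to 61215 up to 97447 to 128154. Snap25 rose by 1.29, whereas Rbfox3 and Gad1 had changes of -0.63 and -0.79. The other call, Slc17a7, was above background on no array of either group. The part of these shifts in the enzymes' change was not tested.

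In CD11B+ cells none of the 8 enzymes was called with age by limma, against 7.94% of all probes called either way. At an unadjusted p under 0.05 there were 3 (Sqle, Fdft1 and Idi1), against 30.3% of all probes, and the methods' t-test gave 1 at an adjusted p under 0.05, against 20.7%. Fdft1 was at 9.55 to 10.36 (median 9.62) at P5 and 10.06 to 10.28 (median 10.19) at P10, 0.43 ± 0.13 higher on the log2 scale, with an adjusted p of 0.032 (limma) and a ratio of medians of 1.49. Its highest P5 array was replicate 5, and the groups overlapped. Sqle changed by 0.35, Idi1 by 0.26, Hmgcs1 by 0.25, Fdps by 0.08, Lss by -0.10, Cyp51 by -0.02 and Dhcr7 by -0.01. The medians were 0.17 over the 8 enzymes and 0.17 over the other 14, of which none was called. Without P10 PBS replicate 3 or 4 the count of calls among the 8 was 1. Without P5 PBS replicate 5 none was called and the median was 0.24, but 4 passed the adjusted p alone (limma), Fdft1 at 0.55 (adjusted p = 8.38e-05), Sqle at 0.48 (adjusted p = 0.000371), Hmgcs1 at 0.37 (adjusted p = 0.00683) and Idi1 at 0.33 (adjusted p = 0.0102). In CD11B+ PBS cells, too, each age lay on slides and scan days of its own, and age and batch cannot be told apart. Insig1, which is itself an SREBP target, rose by 0.70. Oligodendrocyte genes were higher at P10 in these samples: 11 of 13 myelin genes were called, with sums of 7717 to 8917 at P5 and 20655 to 78537 at P10, and 5 of 9 lineage genes (18021 to 31866, then 44385 to 60396). Their part in the enzyme values was not tested.

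The change with age differed between the cell types. The interaction term, O4+ minus CD11B+ cells, passed an adjusted p of 0.05 for 5 enzymes, against 13.7% of all probes in that direction. It was 1.24 for Lss (adjusted p = 5.96e-07, limma), 0.88 for Fdps, 0.83 for Hmgcs1, 0.62 for Idi1 and 0.41 for Cyp51. For Fdft1 it was 0.26 and for Dhcr7 0.34, short of the threshold. The Sqle term was -0.28, and it was 0.22 with each array scaled to its 75th percentile and 0.19 on the deposited matrix values. The call of Cyp51 was lost when any one of 12 of the 24 arrays was left out, with values of 0.32 to 0.47. Without CD11B+ P5 PBS replicate 5 the median was 0.45 and 5 terms passed, among them Sqle at -0.41 (adjusted p = 0.000578, limma) but not Cyp51 at 0.35 (adjusted p = 0.0633, limma). With the slide as a block 4 of the 8 terms passed. The ages shared no slide in either cell type, and age and batch cannot be told apart in this term either.

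The enzymes were lower with IL1B most clearly in CD11B+ cells at P5. Most PBS arrays of this comparison shared no slide with an IL1B array, so treatment and slide largely cannot be told apart, as given below. Sqle and Cyp51 were called lower, against 5.01% of all probes, and 7 of the 8, all but Dhcr7, were lower at an adjusted p under 0.05 without regard to fold, against 13.3%. The same 7 were lower without overlap of the arrays, against 9.95% of all probes. The median change of the 8 was -0.63, against -0.02 over all probes.

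Sqle lay at 11.40 to 12.30 (median 11.51) on PBS arrays and 10.33 to 10.82 (median 10.68) on IL1B arrays. It fell by 0.97 ± 0.15 on the log2 scale, 1.78-fold between medians (adjusted p = 0.00076, limma). Cyp51 lay at 8.03 to 8.56 with PBS (median 8.27), and IL1B arrays were at 7.20 to 7.46 (median 7.42). It fell by 0.88 ± 0.09, 1.80-fold between medians (adjusted p = 5.31e-05, limma). Every IL1B array of both genes was below every PBS array.

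Lss and Fdps stood at the fold threshold. Lss went from 7.84 to 8.39 (median 7.97) on PBS arrays to 6.81 to 7.50 (median 7.39) with IL1B, a log2 change of -0.72 ± 0.13 and a ratio of medians of 1.496 (adjusted p = 0.00167, limma). Fdps went from 12.001 to 12.58 (median 12.16) to 11.20 to 11.66 (median 11.57), a change of -0.66 ± 0.11 and a ratio of 1.499 (adjusted p = 0.000837, limma). The fold from mean log2 values in place of medians called 5 of the 8. Hmgcs1 lay at 13.22 to 14.10 with PBS and 12.81 to 13.001 (median 12.89) with IL1B, a change of -0.60 ± 0.13. Idi1 lay at 10.77 to 11.30 with PBS (median 10.95), and IL1B arrays were at 10.47 to 10.57 (median 10.50), a change of -0.46 ± 0.09. Fdft1 lay at 9.55 to 10.36 with PBS and 8.82 to 9.36 (median 9.30) with IL1B, a change of -0.55 ± 0.15. These 3 genes had ratios of medians of 1.43, 1.37 and 1.25, all below the threshold. Dhcr7 was the exception, at 9.78 to 10.15 with PBS (median 9.95) and 9.69 to 9.97 after IL1B (median 9.83), a change of -0.13 ± 0.08 (adjusted p = 0.297, limma).

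Without PBS replicate 5 and IL1B replicate 3, which stood apart, 2 enzymes were called and the median was -0.50. Sqle was then at -0.76, Cyp51 at -0.82, Lss at -0.55, Fdps at -0.52, Hmgcs1 at -0.47 and Fdft1 at -0.35. Without PBS replicate 5 alone the median was -0.53, and without IL1B replicate 3 alone it was -0.59. Within slide 4, which held 4 IL1B arrays and 1 PBS array, the changes ran from -1.05 to 0.04 with a median of -0.63. The other PBS arrays lay on slides 2 and 3, and the other IL1B arrays on slide 8. Apart from slide 4, treatment and slide cannot be told apart here. With the slide as a block the estimate comes from slide 4 alone, so it rests on 1 PBS array and is not a second result. The count of calls rose to 4 without PBS replicate 2, PBS replicate 4 or IL1B replicate 5. It was also 4 with quantile normalisation over the 24 CD11B+ arrays or with the deposited matrix values.

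**Figure D3:**
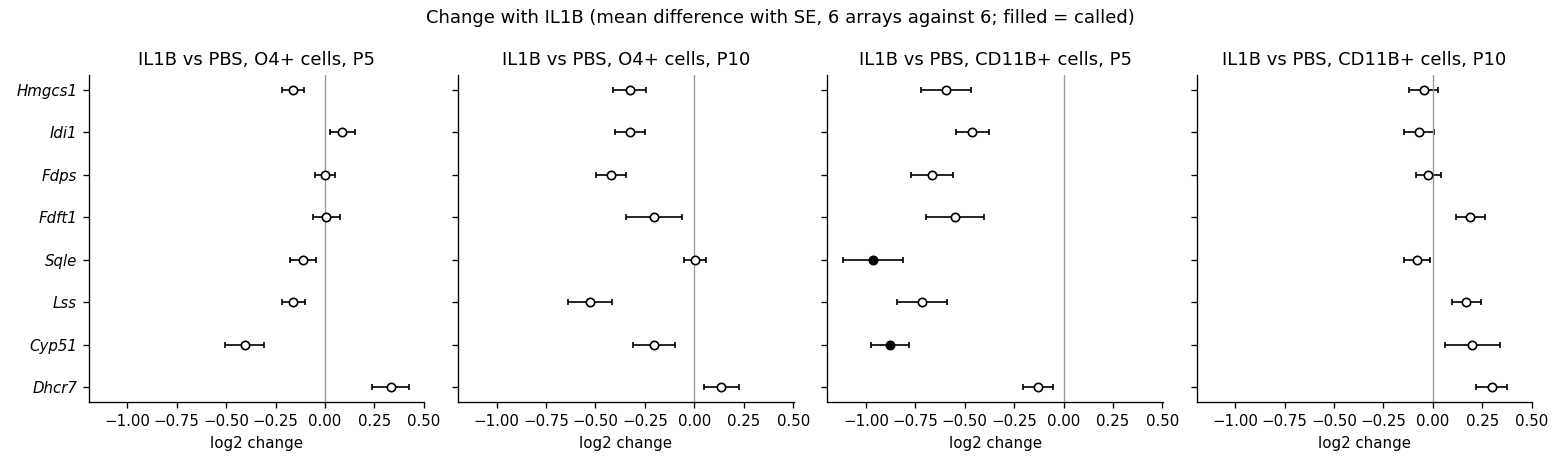
Mean log2 change with IL1B and its SE for each of the 8 enzymes, in 4 panels for O4+ and CD11B+ cells at P5 and P10 (6 arrays against 6, filled points were called). CD11B+ cells at P5 show the 2 calls, Sqle (-0.97) and Cyp51 (-0.88), and lie left of 0 for all 8; in CD11B+ cells at P10 the values lie between -0.08 and 0.30.

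Of the other 14 pathway enzymes 1 was called lower, and their median change was -0.25. Nsdhl, Acat2, Msmo1 and Mvk were at -0.39, -0.36, -0.34 and -0.33, and Mvd (-0.01), Pmvk (0.04) and Lbr (0.11) near 0, and none of these 7 was called. Of 11 fatty acid synthesis genes, Fads2 (a fatty acid desaturase) fell by 1.30, Scd2 (stearoyl-CoA desaturase) by 0.81 and Thrsp by 0.72, and the list had a median of -0.66. Srebf1 (-0.15), Srebf2 (-0.18) and Insig1 (-0.14) were not called. In the export list, Ch25h rose by 2.99, Nr1h3, the oxysterol receptor LXRα, by 1.80 and Abcg1, a cholesterol exporter, by 0.68, whereas Lpl fell by 1.15.

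Markers of other cells moved in the same comparison. All 8 neutrophil and monocyte genes were called higher with IL1B, and their summed signal went from 26874 to 60644 on PBS arrays to 325546 to 489430 on IL1B arrays. Lineage genes fell in 3 of 9 (sums 18021 to 31866, then 10854 to 15472), myelin genes rose in 2 and fell in 3 of 13 (7717 to 8917, then 6664 to 7652) and endothelial genes fell in 5 of 7 (12010 to 19569, then 7058 to 10023). Microglia genes rose in 1 and fell in 2 of 15 (1291708 to 1364142, then 1199837 to 1264931). The 8 enzymes together went from 20530 to 34177 down to 14192 to 16431. The part of these markers in the enzymes' fall was not tested.

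**Figure D4:**
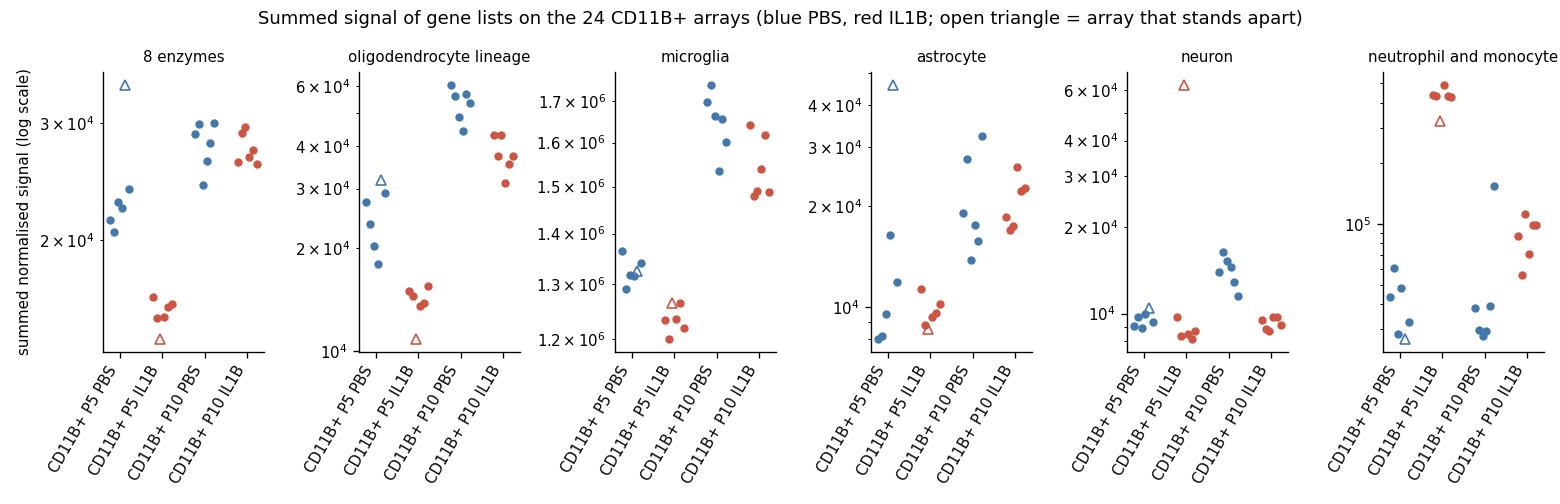
Summed normalised signal (log scale) of the 8 enzymes and of 5 marker lists on each of the 24 CD11B+ arrays (blue PBS, red IL1B, open triangles the P5 arrays that stood apart). At P5 the enzymes and the oligodendrocyte lineage list lie lower with IL1B, and the neutrophil and monocyte list lies higher (325546 to 489430 against 26874 to 60644).

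By P10 none of the 8 enzymes was called in CD11B+ cells with IL1B by limma, against 2.01% of all probes either way. The unadjusted p was under 0.05 for 3 (Lss, Fdft1 and Dhcr7), against 22.8% of all probes, and the methods' t-test gave 0 at an adjusted p under 0.05, against 5.49%. Dhcr7 lay at 9.66 to 10.21 with PBS (median 9.95), and IL1B arrays were at 10.20 to 10.34 (median 10.21), a change of 0.30 (adjusted p = 0.0518, limma) with a slight overlap. Cyp51 changed by 0.20, Fdft1 by 0.19, Lss by 0.17, Fdps by -0.02, Hmgcs1 by -0.05, Idi1 by -0.07 and Sqle by -0.08. Both medians, of the 8 and of the other 14 pathway enzymes, were 0.07, and none of the 14 was called. Within slide 7, with 5 IL1B and 2 PBS arrays, the median of the 8 was 0.05. The other PBS arrays lay on slide 6 and the other IL1B array on slide 9. For those arrays treatment and slide cannot be told apart. Myelin genes fell in 8 of 13 (sums 20655 to 78537, then 13206 to 19977) and lineage genes in 3 of 9 (44385 to 60396, then 31181 to 42996), and their part was not tested.

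The response to IL1B in CD11B+ cells differed between the ages for each of the 8 enzymes. The interaction, P10 minus P5, passed for all 8, against 10.4% of all probes in that direction, with a median of 0.69. It was 1.08 for Cyp51 (adjusted p = 0.000125, limma), 0.89 for Sqle, 0.89 for Lss, 0.74 for Fdft1, 0.64 for Fdps, 0.55 for Hmgcs1, 0.43 for Dhcr7 and 0.39 for Idi1. Without the arrays that stood apart all 8 passed with a median of 0.52. With the slide as a block not all 8 passed, and the P5 part of the term came from slide 4, with 1 PBS array. Of the other 14 enzymes, 6 passed.

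In O4+ cells at P5 the changes of the 8 enzymes with IL1B went both ways, from -0.41 (Cyp51) to 0.33 (Dhcr7). None was called by limma, against 5.01% of all probes either way; 4 had an unadjusted p under 0.05, against 29.4%, and the methods' t-test gave 2 at an adjusted p under 0.05, against 18.8%. Dhcr7 lay at 10.99 to 11.31 with PBS (median 11.19), and IL1B arrays were at 11.24 to 11.77 (median 11.52), a change of 0.33 ± 0.09 (adjusted p = 0.0291, limma). Cyp51 lay at 9.55 to 9.88 with PBS (median 9.80), and IL1B arrays were at 9.16 to 9.78 (median 9.32), a change of -0.41 ± 0.10 (adjusted p = 0.0137, limma). Both passed the adjusted p but not the fold threshold, in opposite directions, and both overlapped between the groups. Hmgcs1 and Lss were each at -0.16, Sqle at -0.11, Idi1 at 0.09, Fdft1 at 0.01 and Fdps at 0.00. The median of the 8 was -0.06, against -0.04 over all probes. None of the other 14 enzymes was called, with a median of -0.04. Within slide 1 (1 IL1B array and 4 PBS arrays) the median of the 8 was -0.01 and within slide 4 (1 and 2) it was -0.10. The other IL1B arrays lay on slide 3, which held no O4+ PBS array. For those arrays treatment and slide cannot be told apart.

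Sterol handling genes did move in these O4+ samples, which are mixtures. Ch25h rose by 3.99, Apoe (the apolipoprotein of brain lipoproteins) by 1.10 and Abca1 by 1.04, among 6 of 14 export genes called higher, and Mylip rose by 1.02. Microglia genes rose in 11 of 15 (sums 358446 to 440106, then 590856 to 724003), neutrophil and monocyte genes in 8 of 8 (177 to 377, then 5307 to 44781), and endothelial genes fell in 5 of 7. Lineage genes fell in 2 of 9 (sums 621548 to 690020, then 512456 to 628602). Myelin genes fell in 1 of 13 (269867 to 306116, then 171478 to 250106), with a median log2 change of -0.37 over the list. Their part in these values was not tested.

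At P10, 5 days after the last injection, the change in O4+ cells was a small fall in a subset of the pathway. None of the 8 was called by limma, against 4.13% of all probes either way, but Lss, Fdps, Hmgcs1 and Idi1 were lower at an adjusted p under 0.05 without regard to fold, against 5.65% of all probes. The same 4 had an unadjusted p under 0.05, against 24% of all probes, and passed the adjusted p of the methods' t-test, against 10.3%. Lss lay at 10.84 to 11.52 with PBS (median 11.10), and IL1B arrays were at 10.47 to 10.75 (median 10.60), a change of -0.53 ± 0.11 or 1.41-fold between medians (adjusted p = 0.0128, limma). Fdps lay at 15.23 to 15.50 with PBS (median 15.38), and IL1B arrays were at 14.81 to 15.21 (median 14.95), a change of -0.42 ± 0.08 or 1.35-fold (adjusted p = 0.00719, limma). In both genes every IL1B array was below every PBS array. Hmgcs1 lay at 16.66 to 17.05 with PBS and 16.31 to 16.67 with IL1B, a change of -0.33 ± 0.08 (adjusted p = 0.0275, limma). Idi1 lay at 13.88 to 14.17 with PBS and 13.48 to 13.90 with IL1B, also a change of -0.33 ± 0.08 (adjusted p = 0.0215, limma). The ranges of Hmgcs1 and Idi1 touched only at their ends. The comparison of ages in O4+ cells of PBS pups uses the same 6 P10 PBS arrays.

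Cyp51 and Fdft1 were each at -0.20, Dhcr7 at 0.14 and Sqle at 0.00, and none of these passed. Sqle lay at 14.53 to 14.71 with PBS (median 14.59), and IL1B arrays were at 14.42 to 14.75 (median 14.62). Its value was -0.26 (adjusted p = 0.019, limma) with each array scaled to its 75th percentile and -0.24 (adjusted p = 0.034, limma) on the deposited matrix values, scalings that moved the median of all probes to -0.19 and -0.17 in this comparison. The median of the 8 was -0.26, against -0.02 over all probes, and -0.45 under the 75th percentile scaling, where Fdps was called at -0.64. Without replicate 6 of both groups none was called and the median was -0.24, with Lss at -0.46, Fdps at -0.42 and Hmgcs1 at -0.30 (adjusted p = 0.0457, limma). Within slide 5 (2 IL1B and 5 PBS arrays) the median was -0.24, and within slide 9 (1 and 1) it was -0.40. The other IL1B arrays lay on slide 6, which held no O4+ PBS array. For those arrays treatment and slide cannot be told apart. The count of calls was 1 without PBS replicate 1, 3 or 4.

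The other 14 enzymes had a median of -0.25, and none was called. Sc5d was at -0.44, Hsd17b7 at -0.41, Mvd at -0.39 and Pmvk at -0.33, and Lbr at 0.50 (adjusted p = 0.00194, limma) was short of the fold threshold. Mylip rose by 0.58, Apoe by 0.78 and Lpl by 1.00, while Insig1 (-0.23), Srebf1 (-0.09) and Srebf2 (0.03) were not called. Myelin genes fell in 6 of 13, with sums of 974577 to 1159759 on PBS arrays and 723918 to 930669 on IL1B arrays. Microglia genes rose in 8 of 15, astrocyte genes in 3 of 8 and neutrophil and monocyte genes in 5 of 8 (145 to 297, then 444 to 1480). Lineage genes rose in 2 of 9, erythroid genes in 2 of 4 and neuron genes in 1 of 7. Their part in the enzymes' values was not tested.

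**Figure D5:**
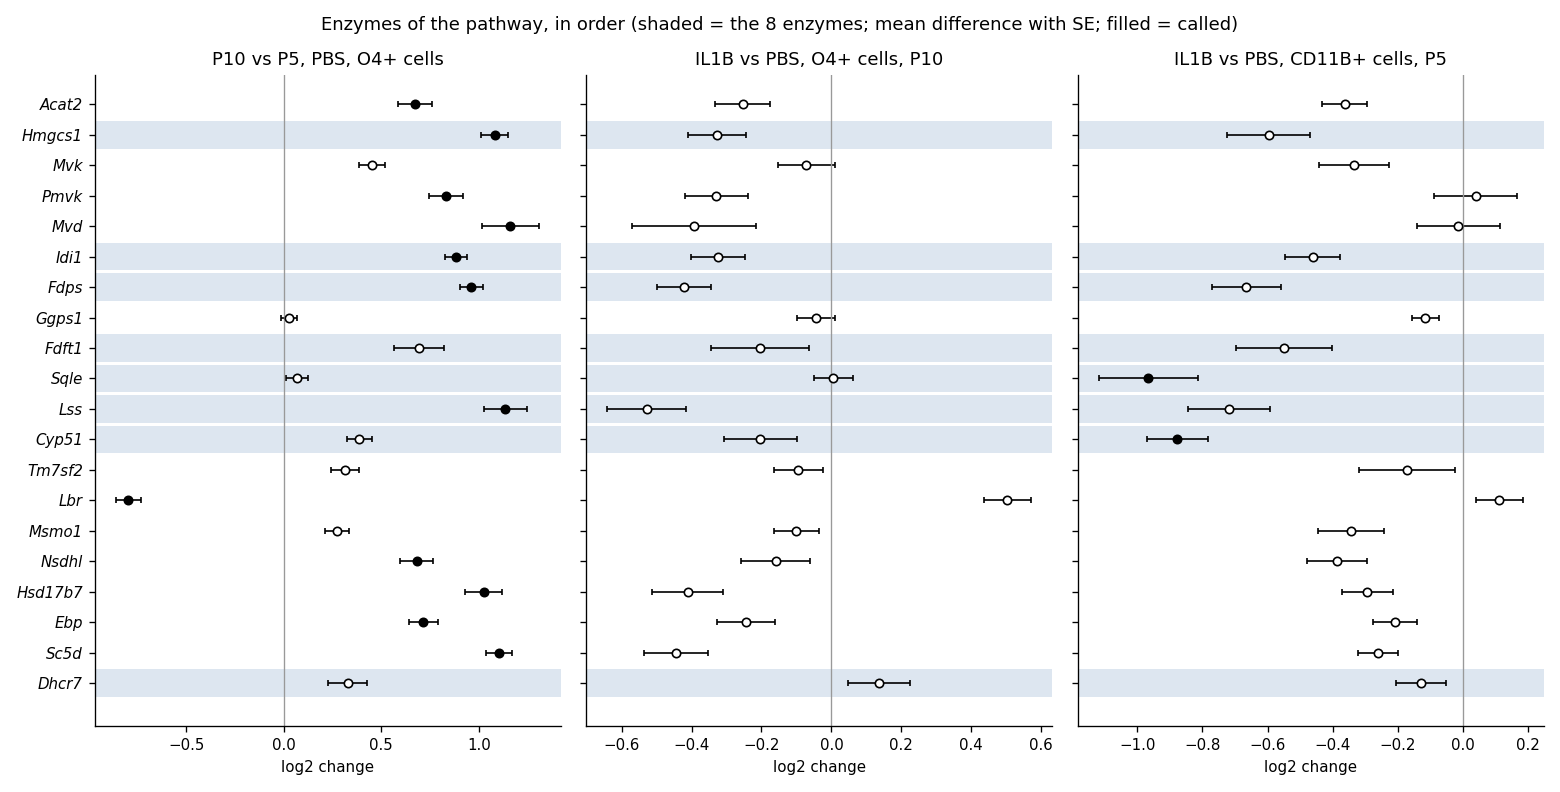
Log2 change with its SE for enzymes of the pathway in order from acetyl-CoA to cholesterol, with the 8 enzymes shaded, for age in O4+ cells of PBS pups, IL1B in O4+ cells at P10 and IL1B in CD11B+ cells at P5 (6 arrays against 6, filled points were called). With age Hmgcs1, Idi1, Fdps and Lss are called among the 8, and Lbr (-0.80) lies left of 0; with IL1B in CD11B+ cells Sqle and Cyp51 are called; the first and second panels share the P10 PBS arrays.

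The response in O4+ cells differed between the ages for Fdps and Idi1, with interaction terms of -0.42 (adjusted p = 0.00435, limma) and -0.41 (adjusted p = 0.00828, limma), against 5.52% of all probes lower. With the slide as a block none passed. At P5 the response of O4+ cells was above that of CD11B+ cells, by the interaction, for 7 of the 8, against 6.95% of all probes: 0.85 for Sqle, 0.66 for Fdps, 0.56 for Lss, 0.56 for Fdft1, 0.55 for Idi1, 0.47 for Cyp51 and 0.46 for Dhcr7. For Hmgcs1 it was 0.43 (adjusted p = 0.0524, limma), and with the slide as a block only Sqle passed. Cyp51 no longer passed without O4+ PBS replicate 3, CD11B+ PBS replicate 6 or CD11B+ IL1B replicate 5 (0.39 to 0.52 over all arrays left out in turn), nor Fdft1 without O4+ PBS replicate 2 or 6, O4+ IL1B replicate 5 or CD11B+ IL1B replicate 4 (0.43 to 0.59). With the replicate number as a block Hmgcs1 passed (adjusted p = 0.0413, limma) and Cyp51 did not (adjusted p = 0.059, limma). At P10 the response of O4+ cells was below that of CD11B+ cells for Lss (-0.70, adjusted p = 0.00342, limma) and Fdps (-0.40, adjusted p = 0.0169, limma), against 3.67% of all probes. With the replicate number as a block Fdft1 passed as well (-0.39, adjusted p = 0.0204, limma). Of the other 14 enzymes, 4 passed that term.

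Across the 24 O4+ arrays the 8 enzymes did not all follow their common mean alike. Pearson's r with the mean of the 8, each centred on its own mean, was 0.99 for Hmgcs1, 0.98 for Lss, 0.97 for Fdps, 0.96 for Idi1 and 0.90 for Fdft1, but 0.80 for Cyp51, 0.63 for Sqle and 0.50 for Dhcr7. Over the 24 CD11B+ arrays Sqle followed the mean most closely (0.99), and Dhcr7 least (0.60). The 28 pairs of enzymes had r between 0.10 and 0.98 (median 0.67) in O4+ cells and between 0.44 and 0.98 (median 0.87) in CD11B+ cells. After each group's mean was taken away the medians were 0.30 and 0.48. These are descriptions over arrays that share normalisation and, within a cell type, the differences between groups, and each member is part of the mean.

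On all 24 O4+ arrays 14623 genes were well above background. Outside the 8, those with a pattern most like the mean included Lpar1, a lysophosphatidic acid receptor (0.99). Gsto2, Pcyt2, which makes phosphatidylethanolamine, Otud7b, B630019K06Rik, Tmcc3 and Epb4.1l3 were at 0.98. High values were common, since the member Fdft1, at 0.90, ranked 1263 among these genes. After each group's mean was taken away, the named genes had r of 0.67 (Otud7b) to 0.75 (Lpar1). Over the 24 CD11B+ arrays (13776 genes) Smc1a, a cohesin subunit, and Pard6a had r of 0.97, and Ppfia3, Arhgap33, Praf2, Etv4 and Smarca4 had 0.96. Within groups these were at 0.62 (Smarca4) to 0.87 (Arhgap33).

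The second probes gave a different picture for Fdft1. Its second probe was dimmer in O4+ cells than in CD11B+ cells, with medians of 5.30 and 6.71 at P5 and a log2 difference of -1.47, where the main probe had 2.04. At P10 the second probe differed by -0.36. It rose with age in O4+ cells by 0.68, 1.58-fold between medians, close to the main probe's 0.69, and had a change of -0.43 with age in CD11B+ cells where the main probe had 0.43. With IL1B in O4+ cells at P10 it was at -0.43 (adjusted p = 0.0294, limma). The second Hmgcs1 probe differed between cell types in the direction of the main one, by 2.14 at P5 and 2.72 at P10, and it rose by 1.42 with age in O4+ cells. In CD11B+ cells it was near background, well above it on 1 of 6, 1 of 6, 3 of 6 and 1 of 6 arrays in the order P5 PBS, P5 IL1B, P10 PBS and P10 IL1B.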

How the data were processed

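The authors hybridised Cy3-labelled total RNA to 1 Agilent array per sample, and the deposited scanner files (Feature Extraction 10.7.3.1) hold for each spot the intensity and a background-subtracted signal. The deposited matrix was checked against them: each value is the ratio of that signal to the array's median. The log2 values differed by at most 1.86e-05. It served as an alternative. The quantile-normalised values of the methods were not used here. All 48 samples were assigned to 8 groups of 6 from their labels.

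Control spots and 5365 spot values marked as outliers or non-uniform were left out of 59305 spots per array. Signals were taken to log2, quantile-normalised over 48 arrays and reduced to 1 mean per probe, giving 55681 probes, without a filter on dim probes. Pairs of groups were tested by limma 3.58.1 under R 4.3.3 (files were read with the package data.table, version 1.17.8), with Benjamini-Hochberg adjustment of p over all probes. A call needed an adjusted p under 0.05 and a ratio of group medians over 1.5, as in the methods, and interaction terms needed the adjusted p alone. The steps were tested on simulated data. Precision is limited by the 6 arrays of a group.

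The members, lists, motifs and tests were chosen with earlier results of these data known. Named genes are the 8 enzymes, at most the 3 largest called changes per list, direction and comparison, a few regulators such as Srebf1, Srebf2 and Insig1, and the 8 closest by likeness; some that this rule would name are not reported here. Other pathway enzymes and regulators named without a call were chosen after their values were seen. Of 14 myelin genes 13 were matched by name. Other settings tried were a 75th percentile scaling, normexp with an offset of 50, quantile normalisation within a cell type, the matrix, a filter on dim probes, the methods' t-test, folds from means, no fold threshold, all groups in 1 fit, slide, scan day and replicate blocks, the mean over a gene's probes and leaving out each array. Leaving out the arrays that stood apart together was chosen after seeing the data.

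The replicate numbers were not used to pair the samples in the main tests. Same-numbered deviations correlated between -0.31 and 0.82, and in no comparison were all 6 above 0.1. Between cell types 5 of 6 were above 0.1 at each age. For 4 of 6 O4+ arrays at each age the same-numbered CD11B+ array was the one that correlated most. Whether the numbers pair the cell types is thus undecided, and the main tests between cell types leave out any such pairing. No source used here says that equal numbers of the 2 cell types mark the same animals.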

Additional observations from a re-analysis of the deposited data

Results flagged for a closer look

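Single arrays lay far from the rest of their group in 11 of the 64 groups of 6 tested (8 genes in 8 groups), where chance gives about 1 in 20. For Cyp51 these were O4+ P5 PBS replicate 3 (9.55) and CD11B+ P5 IL1B replicate 5 (7.20), both low. For Fdft1 they were O4+ P5 IL1B replicate 5 (12.04), O4+ P10 PBS replicate 6 (13.06), O4+ P10 IL1B replicate 6 (12.66) and CD11B+ P5 PBS replicate 5 (10.36), all high. Fdps was high on O4+ P10 IL1B replicate 1 (15.21) and low on CD11B+ P5 IL1B replicate 3 (11.20), where Lss was low too (6.81). Hmgcs1 (14.10) and Sqle (12.30) were high on CD11B+ P5 PBS replicate 5.

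Interaction terms passed in 24 cases, by limma. The response to IL1B differed between P10 and P5 in O4+ cells for Fdps (-0.42) and Idi1 (-0.41). In CD11B+ cells it differed between these ages for Hmgcs1 (0.55), Sqle (0.89), Lss (0.89), Fdft1 (0.74), Fdps (0.64), Idi1 (0.39), Dhcr7 (0.43) and Cyp51 (1.08). At P5 the response of O4+ cells differed from that of CD11B+ cells for Sqle (0.85), Lss (0.56), Fdft1 (0.56), Fdps (0.66), Idi1 (0.55), Dhcr7 (0.46) and Cyp51 (0.47), and at P10 for Lss (-0.70) and Fdps (-0.40). The change with age in PBS pups differed between the cell types for Hmgcs1 (0.83), Lss (1.24), Fdps (0.88), Idi1 (0.62) and Cyp51 (0.41).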

How the results depend on the processing

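Counts and medians of the 8 enzymes stayed close to the reported value in 292 settings and moved in 37. Values of single enzymes kept direction and side of the threshold in 1216, passed it newly in 58, lost it in 24 and changed sign in 30. Scaling to the 75th percentile gave a median of -0.45 and 1 call for IL1B in O4+ cells at P10, 1.04 for age in O4+ cells, 1.67 for the cell types at P5, -0.39 with 4 terms passing for the difference between ages in O4+ cells, -0.56 with 5 terms for the difference between cell types at P10, and 0.78 for the difference in the change with age. The deposited matrix values gave, in the same order, -0.43, 1.04 and 1.56, then 2.53 for the cell types at P10, 4 calls for IL1B in CD11B+ cells at P5, 0.98 for the difference between ages there, 4 terms at P5 and 5 at P10 (-0.59) for the difference between cell types, and 0.75 for the change with age. Where these scalings moved the median of all probes by more than 0.1 it lay between -0.45 and 0.23; the matrix counts for IL1B in CD11B+ cells at P5 and for the difference in that response between cell types at P5 come with smaller shifts. Without a fold threshold the calls with IL1B were 2 and 4 in O4+ cells at P5 and P10 and 7 in CD11B+ cells at P5, and with age 7 in O4+ and 1 in CD11B+ cells. Normalising 24 arrays gave 4 calls for IL1B in CD11B+ cells at P5 and 1 for age there, and folds from means gave 5 for IL1B. The slide block left 0 terms between ages in O4+ cells and 1 between cell types at P5. Between ages in CD11B+ cells it left fewer than 8, and there it rests at P5 on 1 PBS array. The scan day block gave 0.50 between ages in CD11B+ cells and 4 terms between cell types at P10. The mean over a gene's probes gave -0.32 and 0.54 between ages in O4+ and CD11B+ cells and 0.65 for the change with age. With that mean 1 enzyme lost its call between the cell types at P5. Leaving out the arrays that stood apart gave 0.52 between ages in CD11B+ cells. Within slide 9 the median for IL1B in O4+ cells at P10 was -0.40. The cause of these shifts was not tested.

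Values that changed sign were mainly near 0. Exceptions were the Hmgcs1 term between ages in CD11B+ cells, which had passed at 0.55, and the Sqle term for the change with age. For IL1B in O4+ cells at P5, Fdps became 0.017 (75th percentile), 0.014 (normexp) and 0.012 (scan day), Fdft1 -0.085 (matrix) and -0.010 (slide), and Idi1 -0.020 (matrix). At P10 Sqle became -0.26 (75th percentile), -0.24 (matrix) and -0.051 (slide). In CD11B+ cells Dhcr7 at P5 became 0.038 (slide). At P10 there Hmgcs1 became 0.043 and 0.10, Fdps 0.039 and 0.10 (75th percentile and matrix) and 0.055 (slide), Sqle 0.045 (matrix), and Idi1 0.029 (matrix) and 0.0027 (slide). With age in CD11B+ cells Cyp51 became 0.011 (normexp) and 0.018 (matrix), and Dhcr7 0.0093 (matrix), 0.036 (slide) and 0.0011 (scan day). Among the differences of changes, Sqle became -0.16 and -0.056 between ages in O4+ cells, -0.25 and -0.29 between cell types at P10, and 0.22 and 0.19 for the change with age (75th percentile and matrix), and Hmgcs1 between ages in CD11B+ cells became -0.12 with the mean over its probes, of which the second was near background there. The cause was not tested.

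Leaving out each array in turn gave 0 to 1 calls for IL1B in O4+ cells at P10 (1 without PBS replicate 1, 3 or 4), 2 to 4 in CD11B+ cells at P5 (4 without PBS replicate 2 or 4 or IL1B replicate 5) and 0 to 1 for age in CD11B+ cells (1 without P10 PBS replicate 3 or 4). Fdps ranged from -0.029 to 0.022 and Fdft1 from -0.043 to 0.031 for IL1B in O4+ cells at P5, Sqle from -0.023 to 0.042 at P10, Fdps from -0.045 to 0.0045 for IL1B in CD11B+ cells at P10, and Dhcr7 from -0.062 to 0.048 and Cyp51 from -0.079 to 0.065 with age in CD11B+ cells. With the replicate number as a block, although no source says that the numbers pair the samples, 3 terms in place of 2 passed for the difference between cell types at P10. Between cell types at P5 7 passed as before, with Hmgcs1 in place of Cyp51.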
